A study of Mus musculus with 2 samples.

Results

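Granins, neuropeptide precursors and the convertases that cut them are the cargo and the tools of dense-core secretory granules. Granins are acidic, calcium-binding proteins that aggregate in the trans-Golgi network and help to form the granule. Prohormone convertases then cleave granins and peptide precursors at basic residues, and some of them work with a helper or an inhibitor of their own. In the adrenal gland this machinery belongs to the chromaffin cells of the medulla, which store catecholamines together with granins, neuropeptide Y and other peptides.

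The genes described here are the granins Chga, Chgb, Scg2, Scg3 and Scg5, the peptide precursors Npy and Cartpt, the convertase Pcsk2, the convertase inhibitor gene Pcsk1n, and Resp18, an endocrine gene of the secretory pathway. They were chosen by gene name, and all 10 of 10 had reads in both libraries, out of 18179 annotated genes with at least 1 read. The libraries are long-read RNA sequencing of whole adrenal gland from females aged 10 days of the strain B6CASTF1/J, an F1 cross of C57BL/6J and CAST/EiJ mice. Both form 1 group, replicates 1 and 2, and the labels name no treatment or allele, so the data hold no contrast of genotype, treatment, age or tissue, and every test below compares the reads of 2 libraries. The labels are at odds on whether the replicates came from 1 animal or from 2, so the spread between them may be technical.

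Replicate 1 held 593165 reads and replicate 2 held 772154 reads once spike-ins were left out, and levels are given as CPM, reads scaled to those totals. A count of 0 allows a level of up to 5.06 CPM at the depth of replicate 1 and up to 3.89 CPM at that of replicate 2 (3 counts). Reads carry no molecular identifiers, so all intervals, given at 95%, cover counting error only. The labelled tissue was checked against its markers. All 14 chromaffin markers had reads in both libraries, summing to 1817 and 1998 CPM, led by Th and Pnmt, and all 8 cortex markers summed to 17322 and 21440 CPM, led by Cyp11a1 and Cyp21a1. Markers of neighbouring tissues differed between libraries: liver markers summed to 7797 and 1251 CPM, skeletal muscle markers to 10479 and 3605 CPM, brown fat markers to 9185 and 13853 CPM, and kidney markers to 0 and 671 CPM. Their part in the results on granule genes was not tested. In whole tissue, fewer cells of a type and less RNA per cell cannot be told apart.

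Markers of other organs rich in these genes had few reads beside those of Chga and Chgb. None of the 6 pancreatic islet markers had a read in either library, and the 8 pituitary markers had 0 and 2 reads. The 7 brain neuron markers had 26 and 19 reads, with Grin1 (9 and 8) and Rbfox3 (7 and 7) highest. These are not few beside the least read genes described here, Scg3 (9 and 15), Cartpt (9 and 13) and Pcsk2 (12 and 7). Syn1 had 8 and 4 reads and Gad1 2 and 0, and Slc17a6, Slc17a7 and Gad2 were at 0 in both. The 5 sympathetic neuron markers, some of which chromaffin cells share, had 162 and 130 reads, led by Nefl and Prph, and the 5 Schwann cell markers had 52 and 88 reads.

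Sequences at the starts of the genes are shown because several of them carry a cAMP response element, the site through which cAMP-dependent transcription factors act. RefSeq promoter windows of 300 bases (the last 50 of them after the start, GRCm38.p6) were matched for 10 of 10 genes. The motif TGACGTCA, which reads the same on both strands, was found in 3 of 10 windows against 1.79% of 32851 windows of the same length. With any base at the next to last place (TGACGTNA, either strand), 4 of 10 windows matched against 2.93% of all. These matches contain those of the first motif. Each match is printed with 10 bases on either side, 5′ to 3′ on the gene's strand, with the motif in capitals.
Cartpt, chr13:99900778-99900805 (-): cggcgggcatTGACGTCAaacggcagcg
Chga, chr12:102554887-102554914 (+): ggcggtcctaTGACGTAAtttcctgggt
Chgb, chr2:132781560-132781587 (+): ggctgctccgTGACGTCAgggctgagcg
Scg2, chr1:79440077-79440104 (-): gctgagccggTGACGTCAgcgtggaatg
Counted from the 1 start per gene that the promoter table uses, the motif began 112 bases upstream in Cartpt, 44 in Chga, 72 in Chgb and 68 in Scg2. For Cartpt, RefSeq's gene bounds (chr13:99898483-99910179) also reach further upstream than that start. In Cartpt, Chgb and Scg2 the printed stretch overlaps an exon of a GENCODE transcript that starts further upstream (Cartpt-202, Chgb-201 and Scg2-201). The shorter TGACG, either strand, was found in 7 of 10 windows against 20.8% of all, and the GC box GGGCGG in 7 of 10 against 35.7%. The TATA box TATAAA was found in 1 window, that of Chga, and the AP-1 site TGANTCA in 1, that of Pcsk1n, against 13.6% and 7.81% of all windows. These are matches of letters, and binding was not measured.

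The 10 genes together took 2689 reads in replicate 1 and 3985 in replicate 2, or 0.453% and 0.516% of the libraries. Chga and Chgb made up most of this, with 75.0% and 73.2% of the reads of the 10 genes. Set against the reads of the chromaffin markers, the 10 genes stood at 2.49 (2.32 to 2.68) in replicate 1 and 2.58 (2.43 to 2.74) in replicate 2. Set against the cortex markers they stood at 0.262 (0.251 to 0.273) and 0.241 (0.232 to 0.249). The first pair of intervals overlaps and the second does not.

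**Figure D1:**
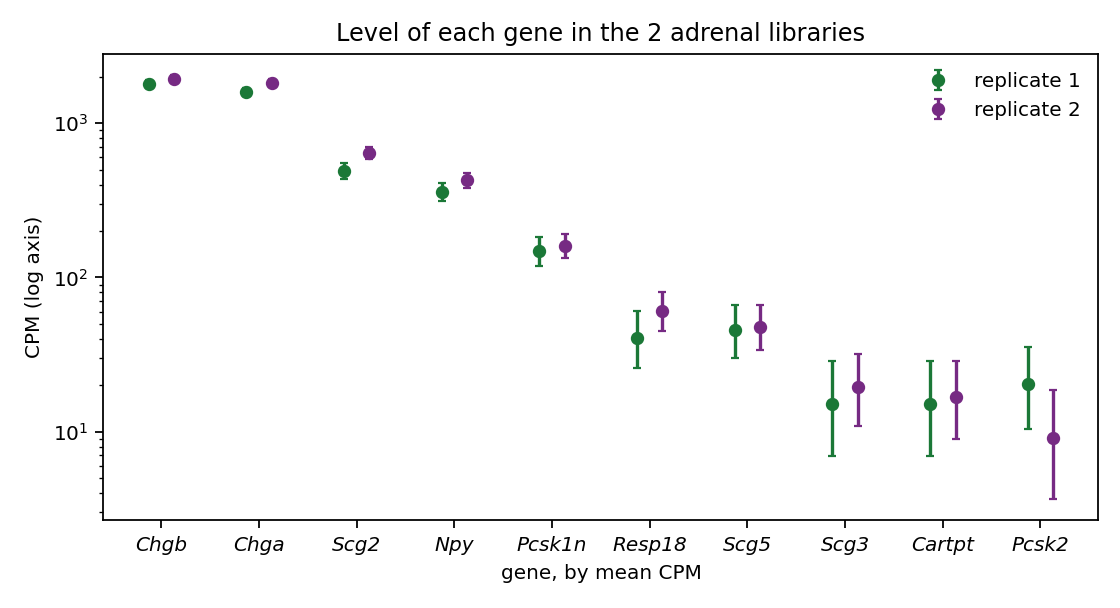
Level of each gene in CPM on a log axis, in order of mean CPM, with replicate 1 in green and replicate 2 in purple; bars are exact 95% Poisson limits. Levels run from 1875 CPM for Chgb to 14.6 CPM for Pcsk2, and the limits widen toward the right, where genes have 7 to 47 reads.

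Among the granins, Chgb (chromogranin B, chr2:132781278-132795079, plus strand) had 1070 reads in replicate 1 and 1503 in replicate 2. Its level was 1804 CPM (1697 to 1915) and 1947 CPM (1849 to 2047), and 38 annotated genes had a higher mean. Chga (chromogranin A, chr12:102554969-102565028, plus strand), the precursor of peptides such as catestatin and vasostatin, had 946 and 1413 reads, or 1595 CPM (1495 to 1700) and 1830 CPM (1736 to 1928). Chgb was above Chga within each library, but the range of Chgb overlapped that of Chga across libraries.

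Scg2 (secretogranin II, chr1:79434669-79440120, minus strand), from which secretoneurin is cut, had 291 and 497 reads, or 491 CPM (436 to 550) and 644 CPM (588 to 703). It lay below Chga in both libraries, with 3.25 and 2.84 reads of Chga for each read of Scg2. Scg3 (secretogranin III, chr9:75643189-75684056, minus strand), a granin that binds chromogranin A and cholesterol-rich granule membrane, had 9 and 15 reads, or 15.2 CPM (6.94 to 28.8) and 19.4 CPM (10.9 to 32.0). It was thus the least read of the granins in both libraries.

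Of the peptide precursors, Npy (chr6:49822710-49829507, plus strand), the precursor of neuropeptide Y, had 213 and 329 reads, or 359 CPM (312 to 411) and 426 CPM (381 to 475). Cartpt (chr13:99898489-99901091, minus strand), the precursor of the CART peptides, had 9 and 13 reads, or 15.2 CPM (6.94 to 28.8) and 16.8 CPM (8.96 to 28.8). Npy exceeded Cartpt by 23.7 reads to 1 in replicate 1 and 25.3 to 1 in replicate 2, and the levels of the pair were far apart in both.

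Among the convertases and their partners, Pcsk2 (chr2:143546156-143816285, plus strand), which encodes prohormone convertase PC2, had 12 and 7 reads, or 20.2 CPM (10.5 to 35.3) and 9.07 CPM (3.64 to 18.7). Scg5 (chr2:113776362-113829121, minus strand), whose product 7B2 is the chaperone that Pcsk2 needs to mature, had 27 and 37 reads, or 45.5 CPM (30.0 to 66.2) and 47.9 CPM (33.7 to 66.0). There were 2.25 and 5.29 reads of Scg5 for each read of Pcsk2, and the limits of the pair overlapped in replicate 1 and not in replicate 2.

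Pcsk1n (chrX:7919822-7924410, plus strand) encodes proSAAS, an inhibitor of the convertase PC1/3. It had 88 and 124 reads, or 148 CPM (119 to 183) and 161 CPM (134 to 191). The gene of its target, Pcsk1, had 6 and 11 reads, so reads of the inhibitor outnumbered those of both convertase genes in each library. Resp18 (chr1:75272199-75278415, minus strand), whose product is related to the luminal part of the granule protein IA-2, had 24 and 47 reads, or 40.5 CPM (25.9 to 60.2) and 60.9 CPM (44.7 to 80.9).

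In order of mean CPM, a scale in which each read counts once whatever the transcript's length, the genes ran Chgb, Chga, Scg2, Npy, Pcsk1n, Resp18, Scg5, Scg3, Cartpt and Pcsk2. Neighbours whose values overlapped across libraries were Chgb with Chga, Resp18 with Scg5, Scg3 with Cartpt, and Cartpt with Pcsk2. Divided by the length of the annotated transcripts read, the order became Chga, Npy, Chgb, Scg2, Pcsk1n, Resp18, Scg5, Cartpt, Scg3 and Pcsk2. Because each read counts once, this per-kilobase scale does not measure the number of transcripts. On that scale Chga stood at 909 CPM per kilobase, Npy at 694 and Chgb at 684, which moves Npy, with its short transcript of 566 bases, above Chgb, with 2740 bases. Scg2 followed at 235 CPM per kilobase, and Pcsk2, with the longest transcript of the 10 at 4723 bases, stayed last at 3.10.

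Between libraries, 0 of the 10 genes passed the call (two-sided exact binomial test of the reads, Benjamini-Hochberg adjusted p below 0.05 over 10567 genes, and at least 2-fold), against 3.46% of all genes tested. Of all genes tested, 0.88% were called higher in replicate 2 and 2.58% higher in replicate 1. Chga was 1.15-fold higher in replicate 2 (1.06 to 1.25, adjusted p = 0.0199 by the exact binomial test) and Scg2 was 1.31-fold higher (1.13 to 1.52, adjusted p = 0.00551 by the same test). These are the 2 of 10 genes with an adjusted p, or an unadjusted p, below 0.05, and both differences are under 2-fold. Such an adjusted p was found for 6.79% of all genes, a share that takes in every gene from 10 reads summed. That share was not matched to the read depth of Chga and Scg2, and small differences reach a low p more easily at high depth. For Chga the adjusted p of the exact binomial test was 0.740 with annotated models alone and 0.737 with spliced models alone, and for Scg2 it was 0.0242 and 0.00448. With chromaffin marker reads as totals the adjusted p was 0.741 for Chga and 0.159 for Scg2 by the same test. With cortex marker reads as totals it was 0.296 for Chga, whose log2 ratio turned to -0.11, and 0.772 for Scg2. With those totals Chgb was lower in replicate 2, at a log2 ratio of -0.20 (adjusted p = 0.0116 by the exact binomial test). The sign of the log2 ratio turned for 6 of the 10 genes with cortex totals and 4 with chromaffin totals. It turned for 2 with annotated models alone and 1 with spliced models alone. edgeR's exact test, which also allows for spread beyond counting, cannot decide here whether the 10 genes differ. The series holds no libraries besides the pair compared, so the test drew its allowance for spread from the difference between that pair.

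The other 8 ratios had intervals that include 1. Chgb stood at 1.08 (0.997 to 1.17), Npy at 1.19 (0.996 to 1.42) and Pcsk1n at 1.08 (0.817 to 1.44). Resp18 had the widest gap among genes above 1, at 1.50 (0.902 to 2.57). With all reads but spike-ins as totals, Pcsk2 was the 1 gene with the lower value in replicate 2, at 0.448 (0.149 to 1.23). For 4 genes, Resp18, Scg3, Cartpt and Pcsk2, the interval holds a 2-fold difference, so these counts do not exclude a difference of that size. The median log2 ratio of the 10 genes was 0.16 (range -1.12 to 0.57), beside -0.04 over all genes tested.

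**Figure D2:**
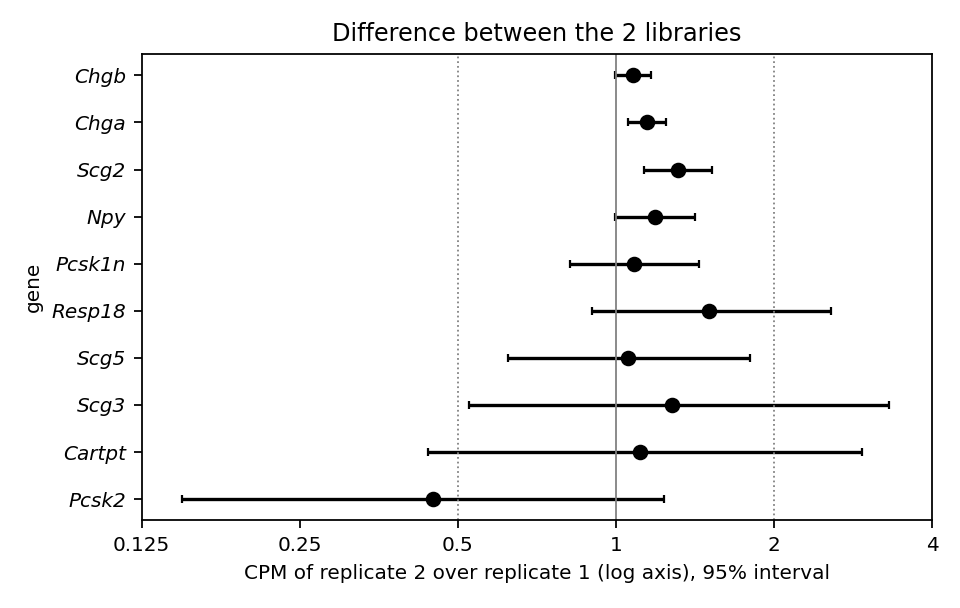
CPM of replicate 2 over replicate 1 for each gene on a log axis, with exact 95% binomial intervals; the solid line marks 1 and the dotted lines mark a 2-fold difference. Intervals of Chga and Scg2 lie above 1 and below 2, and that of Pcsk2 runs from 0.149 to 1.23.

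The reads of a long-read library also show which exons each RNA joined. Of 25 annotated transcripts of the 10 genes, 13 had reads, and only Scg2, Scg3 and Cartpt had reads on more than 1. All 13 are annotated as protein coding. Of the 12 transcripts with 0 reads, 11 are annotated as retained-intron, processed or decay-targeted transcripts and 1, Scg3-205, as protein coding. The deposited tables class each model as an annotated transcript, an incomplete match that holds part of an annotated chain of splice junctions, a new combination of annotated sites, a model with a new site, or genomic. The annotated transcripts held 75.4% and 76.1% of Chga reads, 73.4% and 72.1% of Chgb reads, and 80.8% and 81.8% of Npy reads. Over all annotated genes the share was 71.0% and 75.6%.

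Where both libraries had 50 reads or more, which held for 5 of the genes, the share of the most read annotated transcript was compared between libraries by a two-sided Fisher's exact test over 2146 genes. Of the 5, 0 were called (adjusted p below 0.05, with a difference of 10 percentage points or more), against 1.72% of all genes tested. The largest of the 5 differences was that of Pcsk1n, from 80.7% (70.9 to 88.3) to 90.3% (83.7 to 94.9), with an adjusted p of 0.427 by Fisher's exact test. With unannotated single-exon reads left out, Pcsk1n-201 held 98.6% and 99.1% of reads.

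Scg2 was the gene whose reads split most evenly. Its last exon (exon 2 of Scg2-201) holds a stretch of 120 coding bases that Scg2-202 removes as an intron. The stretch is shown because the finding turns on it; it is printed from the GENCODE M21 transcript (mm10, minus strand) with the optional intron in capitals and 15 bases on either side.
Scg2, optional intron chr1:79435932-79436051: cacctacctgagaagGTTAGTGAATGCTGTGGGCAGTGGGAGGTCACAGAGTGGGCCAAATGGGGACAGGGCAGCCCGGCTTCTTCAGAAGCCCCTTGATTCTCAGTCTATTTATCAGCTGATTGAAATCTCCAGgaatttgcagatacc
The stretch opens with gt and closes with ag, and its length is a multiple of 3, so the reading frame is kept with or without it. It was removed in 124 and retained in 138 informative reads of replicate 1, and removed in 254 and retained in 225 of replicate 2. The removed share was 47.3% (41.2 to 53.6) and 53.0% (48.4 to 57.6), intervals that overlap, and 51.0% (47.3 to 54.7) over both libraries. The sequence repeats 3 bases at its edges, so the exact point of the join can be placed in more than 1 way. The removed count includes 5 and 7 reads of an incomplete model that holds this junction alone. The retained count of replicate 1, 138, is that of Scg2-201 alone. Single-exon models held 29 and 18 further reads of Scg2, or 9.97% (6.78 to 14.0) and 3.62% (2.16 to 5.66). Such models cannot hold the junction, so incomplete reads may raise the removed share, and the size of this effect was not tested.

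Cartpt and Scg3 each had a further annotated choice. In Cartpt, exon 2 begins at either of 2 acceptors 39 coding bases apart, and the stretch between them is what tells a longer from a shorter CART precursor. In Scg3, exon 9 ends at either of 2 donors 15 coding bases apart. Both stretches are printed as above, in capitals between 15 bases of Cartpt-201 and Scg3-201, the transcripts that hold them (mm10, minus strand).
Cartpt, chr13:99900041-99900079: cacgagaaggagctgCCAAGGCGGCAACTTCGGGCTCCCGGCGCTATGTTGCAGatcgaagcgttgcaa
Scg3, chr9:75663193-75663207: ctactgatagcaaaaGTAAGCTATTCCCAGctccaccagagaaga
The Cartpt stretch was left out in 8 reads and kept in 1 in replicate 1, and left out in 6 and kept in 5 in replicate 2. Over both libraries 70.0% of reads (45.7 to 88.1) had the shorter form. The Scg3 stretch was left out in 4 of 9 reads in replicate 1 and in 12 of 15 in replicate 2, or 66.7% (44.7 to 84.4) over both. Both forms of each gene were read in both libraries, and the intervals of the libraries overlapped for each gene. Both lengths are multiples of 3. The Cartpt stretch ends in ag and the Scg3 stretch begins with gt, the bases found at most acceptors and donors.

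Chga had more unannotated spliced chains than any of the other 9 genes. Its new combinations and new sites came to 41 chains, of which 28 had 1 read, 10 were found in both libraries and 2 had at least 5 reads in each. They held 39 and 61 reads. New combinations took 1.06% and 1.06% of Chga reads, against 4.68% and 4.22% over all annotated genes. Models with a new site took 3.07% and 3.26%, against 3.52% and 3.36%. The 2 chains with at least 5 reads in each library differ from Chga-201 only in where exon 5 begins. Another site nearby was also read in both libraries. The start of exon 5 is printed (Chga-201, mm10, plus strand) with the ag before each of the 3 unannotated starts in capitals.
Chga exon 5 start, chr12:102561345-102561395: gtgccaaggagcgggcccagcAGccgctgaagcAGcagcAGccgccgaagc
The stretch is rich in cag, which occurs 5 times in these 51 bases. Exon 5 began 23 bases late in 5 and 6 reads, 35 bases late in 7 and 8 reads, and 41 bases late in 3 and 7 reads. Reads with the annotated junction numbered 750 and 1136. The 3 sites together made up 1.96% (1.10 to 3.21) and 1.82% (1.13 to 2.76) of these reads, with overlapping intervals. None of the 3 lengths is a multiple of 3.

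Seen over all 10 genes by 1 rule, junctions found in both libraries cut a stretch from an annotated coding exon in 12 places, in 6 genes. Of these, 3 are the annotated choices of Scg2, Scg3 and Cartpt, and 9 are unannotated, 6 of them in Chga and 2 in Chgb. Of the 9, 2 have a length that is a multiple of 3. All 8 acceptors among the 12 follow ag and all 3 shifted donors lie before gt. The sources used here do not say whether the alignment favoured such bases, so they cannot show that the sites are real. Several of the 12 places rest on 1 read in a library. Chga exon 4 began 5 bases late in 1 and 3 reads, exon 6 began 6 bases late in 1 and 2, and exon 7 began 5 bases late in 1 and 1. Chgb exon 4 ended 1608 bases early in 1 read of each library. In Chgb exon 2 began 7 bases late in 2 and 4 reads, against 793 and 1089 reads at the annotated site. In Resp18 exon 3 ended 5 bases early in 1 and 2 reads, against 22 and 44.

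**Figure D3:**
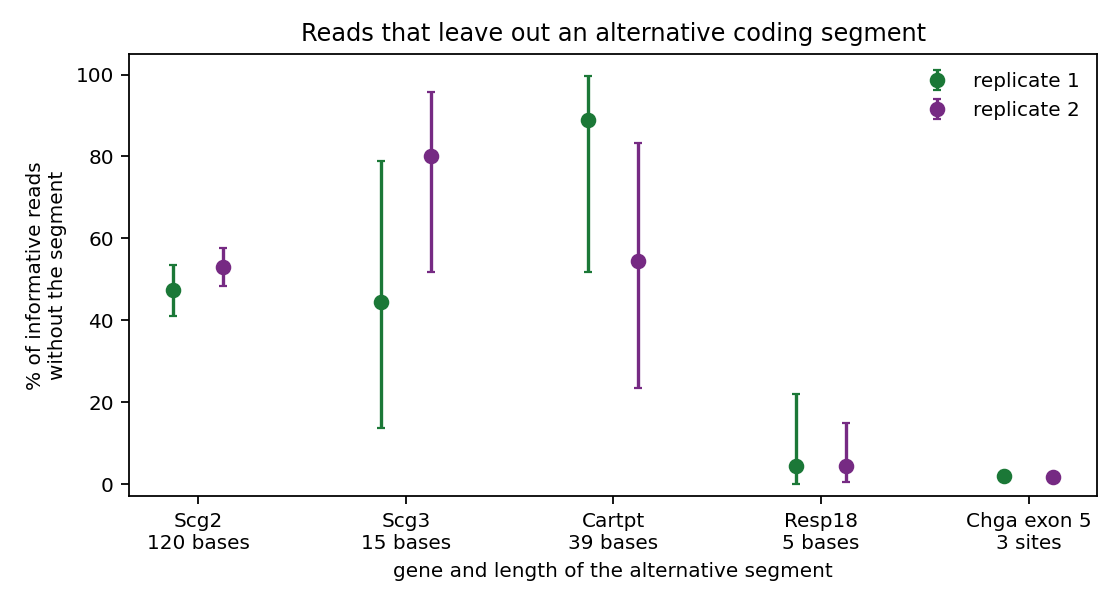
Share of informative reads, in percent, that leave out the alternative coding stretch of Scg2, Scg3, Cartpt and Resp18, and that use any of 3 unannotated starts of Chga exon 5; green is replicate 1, purple is replicate 2 and bars are exact 95% binomial intervals. Scg2 sits near the middle at 47.3% and 53.0%, Scg3 and Cartpt have wide intervals, and Chga lies at 1.96% and 1.82%.

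A few reads joined other exons. In Chga, exon 2, of 47 bases, was skipped in 3 and 4 reads, exon 4, of 69 bases, in 3 and 0 reads, and exon 5, of 159 bases, in 0 and 1 read. Scg3 skipped exons 2 and 3, 99 bases together, in 1 read of each library. In Npy exon 2 was joined to a donor 216 bases beyond the annotated 1 in 1 and 3 reads, against 172 and 269 at the annotated donor. In Scg5 the first junction of Scg5-201 was in 17 and 32 reads, and that of Scg5-202, which joins another first exon, in 3 and 0 reads.

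Coverage of the 5′ junctions differed between the genes. In Chgb the junction of exons 4 and 5 was present in 99.1% and 99.2% of reads, and that of exons 3 and 4 in 75.8% and 73.7%. Most of the gap lay in 1 model with exons 4 and 5 alone, with 248 and 387 reads, the most read unannotated model of the 10 genes. Reads of incomplete chains that keep the 3′ end made up 24.6% and 26.7% of Chgb, beside 9.67% and 7.76% over all annotated genes. In Npy the gap lay at the first junction, present in 80.8% (74.8 to 85.8) and 81.8% (77.2 to 85.8) of reads, while the second was present in 98.6% and 99.1%. A model that lacks exon 1 held 37 and 54 reads.

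In Chga the share was 92.0% (90.0 to 93.6) and 88.4% (86.6 to 90.0) at the last junction and 78.8% (76.0 to 81.3) and 79.5% (77.3 to 81.6) at the first. Its single-exon reads numbered 70 and 153, or 7.40% (5.81 to 9.26) and 10.8% (9.26 to 12.6). In Pcsk1n both junctions were present in about the same share, 80.7% and 81.8% in replicate 1 and 90.3% and 91.1% in replicate 2. All 17 and 12 unannotated reads of Pcsk1n lay on models that end 1176 bases before the annotated 3′ end, which is the same in RefSeq and GENCODE. All 12 and 7 reads of Pcsk2 carried the first junction of the 12-exon transcript, the longest chain among the genes together with that of Scg3. The deposit gives ends for models, not for single reads, and whether such chains are RNA made that way or partial copies was not tested.

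**Figure D4:**
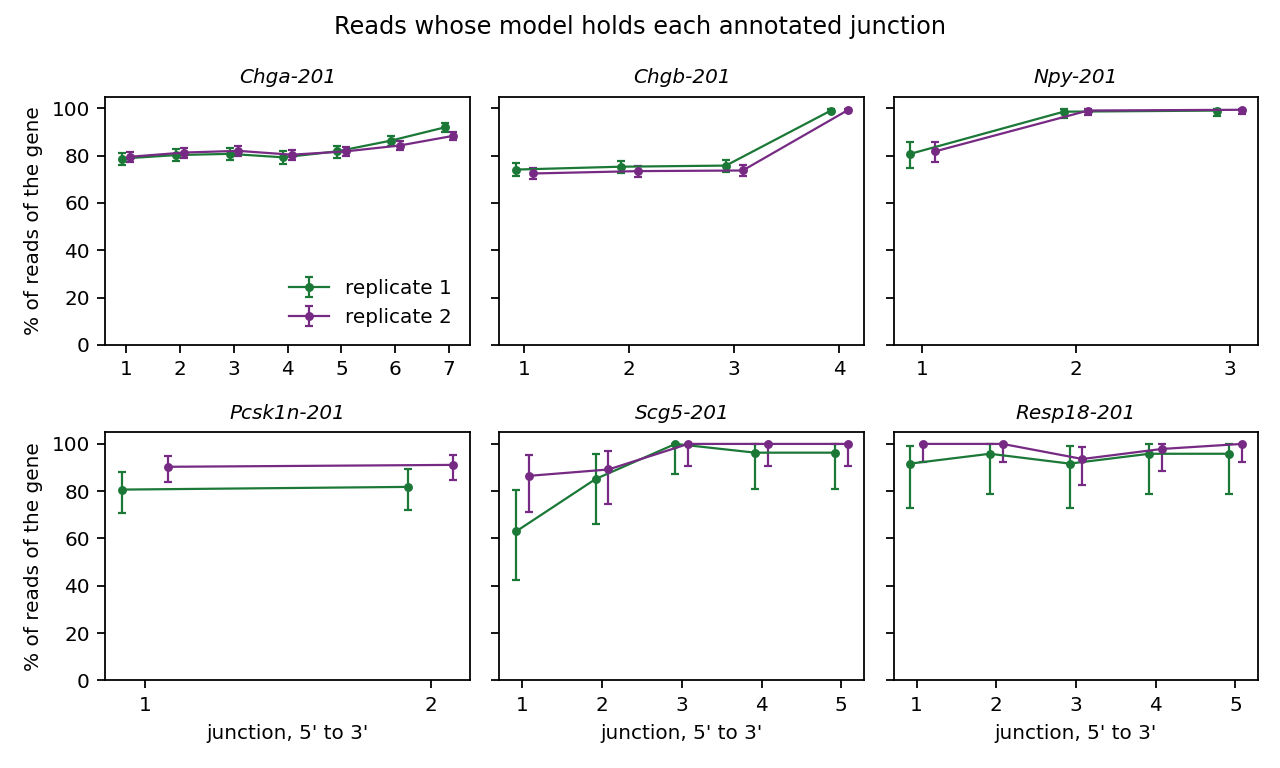
Percent of all reads of a gene whose model holds each junction of its most read annotated transcript, numbered 5′ to 3′, for 6 of the genes; green is replicate 1, purple is replicate 2 and bars are exact 95% binomial intervals. Chgb lies between 72.5% and 75.8% over its first 3 junctions and reaches 99.1% and 99.2% at the last, and Npy rises from 80.8% and 81.8% at the first junction to 98.6% and 99.1% at the second.

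Transcripts on the opposite strand within the bounds of the 10 genes were scarce, with 5 reads at 3 loci in replicate 1 and 6 reads at 4 loci in replicate 2, and no locus had more than 3.

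Other genes of the pathway were taken from lists of peptide precursors, processing enzymes, granule formation and release, and NPY receptors. Of 23 further peptide precursors, 6 had reads in both libraries and 13 had 0 in both. The most read were Penk, the proenkephalin gene, with 17 and 25 reads, and Gal, the galanin gene, with 17 and 20. Nucb2, the precursor of nesfatin, had 11 and 25 reads, Adm, the adrenomedullin gene, had 9 and 20, and Vgf, itself a granin-like precursor, had 4 and 7. All 23 together had 61 and 102 reads, fewer than Npy alone in each library. Of the 5 that could be tested, 0 were called, against 3.46% of all genes tested.

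The 13 at 0 include Vip, Adcyap1, Tac1 and Sst, named after their values were seen, and 0 reads allow up to 5.06 and 3.89 CPM each. All 10 processing enzymes had reads, and 0 of the 9 tested were called, against 3.46% of all genes tested. Cpe, the carboxypeptidase that trims basic residues after cleavage, had 246 and 296 reads, or 415 and 383 CPM. Ctsl, a cysteine protease found in lysosomes and granules, had 103 and 248 reads and was 1.85-fold higher in replicate 2 (1.46 to 2.35, adjusted p = 3.7e-06 by the exact binomial test), under the 2-fold minimum. Pcsk5 followed with 54 and 55 reads, Pam, which amidates peptide ends, with 45 and 61, and Furin with 25 and 22. Pcsk5 and Furin, convertases that act widely outside granules, each had more reads than Pcsk1 and Pcsk2 in both libraries.

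Of 20 genes of granule formation and release, 16 had reads in both libraries. Of the 12 tested, 0 were called, against 3.46% of all genes tested. Cyb561, the granule membrane cytochrome that supplies electrons for noradrenaline synthesis, had 162 and 219 reads. Dnajc5, a chaperone of exocytosis, had 48 and 65, Rab3d 44 and 52, Rab3a 42 and 45, and Ptprn, which encodes IA-2, 28 and 38. The median log2 ratio was 0.36 for the 5 tested precursors, -0.26 for the 9 enzymes and -0.04 for the 12 granule genes, beside -0.04 over all genes tested. The 5 NPY receptor genes, including Npy1r and Npy2r, had 5 reads in all in each library, and 0 of the 5 had enough reads to be tested.

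**Figure D5:**
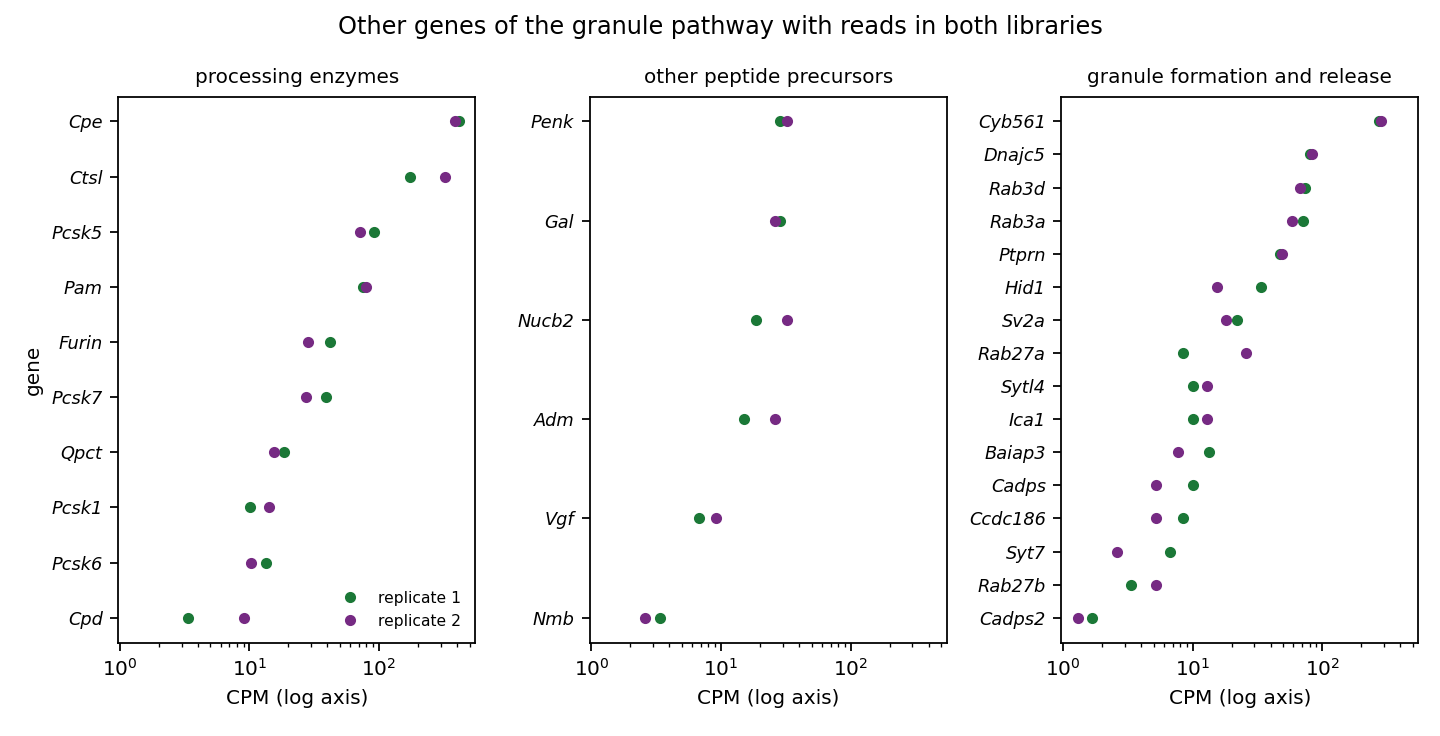
CPM on a log axis of the processing enzymes, other peptide precursors and genes of granule formation and release that had reads in both libraries; green is replicate 1 and purple is replicate 2. Cpe, at 415 and 383 CPM, is the highest, and no other peptide precursor reaches 33 CPM.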

How the data were processed

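Per the files deposited by the authors, the unit is unnormalized read counts, listed by transcript model for each library beside a model annotation. The exon number and length of each model, deposited in the same tables, told spliced from single-exon models. Per the deposit's notes, coordinates follow mm10 with GENCODE M21, and the model annotation names TALON. For the aligner, the platform and tool versions, the sources used here give nothing. Unannotated genes have other identifiers in each library and were not compared.

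Counts were summed per gene without ERCC reads, and CPM, Poisson, Clopper-Pearson and binomial intervals were computed from them (Python 3.11.15, scipy 1.17.1). The binomial test doubles the smaller tail and used genes with 10 or more reads summed and a pseudocount of 0.5 reads for the 2-fold minimum. Alternatives used edgeR 4.0.16 and DESeq2 1.42.0 (R 4.3.3). The binomial and Fisher tests were run on counts simulated with counting error alone. Those runs do not show how the tests behave under further spread. With 1 group, levels have no test. Named are the 10 genes, the 5 highest of each pathway list and any called, and up to 2 of each marker list. Pcsk1, every brain neuron marker and the precursors given above at 0 are named besides. Models named per gene are the most read models and unannotated spliced models with 5 reads in each library. The genes and lists were chosen with earlier results of these data known.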

Additional observations from a re-analysis of the deposited data

How the results depend on the processing

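The order of the 10 genes by CPM was the same with annotated or spliced models alone, TMM or DESeq2 totals and totals with spike-ins. With annotated models alone their summed level was 3754 CPM in place of 4847, and leaving out either library gave 4533 to 5161. With edgeR's exact test left aside, the count of called members was 0 in every alternative run but that with no fold minimum. There it was 2 (Chga and Scg2), and 1 processing enzyme (Ctsl) was also called. Over all genes the count was 366 of 10567 tested (93 higher in replicate 2, 273 in replicate 1). It became 238 of 8026 with annotated models alone. Of the 10567, it was 607 with cortex marker reads as totals (56 and 551), 717 with no fold minimum and 132 by edgeR's exact test. Chromaffin and cortex totals moved the median log2 ratio of all genes from -0.04 to -0.18 and -0.35. The share test called 37 of 2146 genes, 13 of 1846 with spliced models alone and 20 of 4818 with a minimum of 20 reads. Members under 50 reads are limited by counting error. No paired analysis was possible because the series has 1 group.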
